A study of Solanum lycopersicum with 12 samples.

Results

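The small RNAs described here are the reads of 24 nt that fell on gene loci of tomato (Solanum lycopersicum), compared between 9 callus libraries and 3 cotyledon libraries. They were chosen by read length, from the 12 columns of 24-nt counts among the 108 columns of the deposited table, and all 12 libraries of the study took part. The callus had formed from cotyledons, the seed leaves, that were excised from 6-day-old seedlings (counted from sowing) and placed in culture on SIM medium, and it was sampled after 12, 14 and 16 days, with 3 libraries for each day. The cotyledon libraries, also 3, came from such cotyledons at day 0, before culture. All cultures were kept at 25 °C under 16 h of light and 8 h of darkness, and the libraries were built from total RNA. Because all callus was cultured and all cotyledon was not, tissue, time and medium cannot be told apart, and in a bulk sample fewer cells of a type and less RNA per cell cannot be told apart either.

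In plants, 24-nt small RNAs are mainly small interfering RNAs of the RNA-directed DNA methylation pathway. A transcript made by RNA polymerase IV is copied into double-stranded RNA, cut by a Dicer-like enzyme and loaded into an Argonaute protein, which guides a DNA methyltransferase to matching sequence. Such RNAs come from both strands and are best known from transposons and repeats, many of which lie next to or inside genes. MicroRNAs, which guide the cutting of messenger RNA, are mostly 21 nt long. A value here counts small-RNA reads that mapped to a locus. It is not the level of the locus's messenger RNA, and DNA methylation was not among the measurements used here.

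The loci carry Solyc identifiers only, whose first number is the chromosome. Chromosome 0 holds sequence not placed on a chromosome. None of the identifiers (0) matched the names of the reference table, so that no gene name, role, position or tissue marker is given. Of 34688 loci, 27966 had a 24-nt read in some library, 10899 had at least 10 such reads in all, and 2938 had one in every library. Each library held between 100460 and 172811 reads of 24 nt, and the 12 libraries together 1415375. The totals of all reads per library, recovered from the deposited TPM values, ranged from 2769024 to 4799134. The sources used here do not say what this total counts. The labels did not say whether the replicates were separate cultures, so that a p-value rests on the spread between libraries, which may be technical.

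A first principal component, with 47.2% of the variance of the 24-nt levels, separated callus from cotyledon. On the second, with 15%, 3 callus libraries stood apart, namely day 12 replicate 3 at 13.7, day 14 replicate 1 at 27.2 and day 16 replicate 3 at 27.7, while the other callus libraries lay between -14.0 and -8.4. Cotyledon replicate 1 lay at 7.8 on it, against -2.7 and -3.0 for the other cotyledon libraries, and it also held the most 24-nt reads. The counts below are therefore also given without these libraries.

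The first question was how much 24-nt RNA the gene loci held on each strand. Callus held about 0.640 times the sense level and 0.671 times the antisense level of cotyledon, both relative to all reads of a library. In the deposited TPM table, which here means reads per 1000000 reads of the library, sense 24-nt reads had a lowest value of 13095.8, a median of 14258.5 and a highest value of 14876.9 TPM in the 9 callus libraries, against 25127.7, 19533.3 and 22173.2 TPM in the 3 cotyledon libraries. Antisense 24-nt reads ran from 11585.2 over a median of 12137 to 12903.5 TPM in callus, against 21283.7, 15663.9 and 17558.9 TPM in cotyledon. On both strands every callus library lay below every cotyledon library, and the cotyledon libraries were the more scattered.

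The log2 change of callus against cotyledon was -0.64 (SE 0.09) for sense 24-nt reads, with an adjusted p of 0.000113 by limma over the 18 classes of length and strand. For antisense 24-nt reads it was -0.56 (SE 0.09), with an adjusted p of 0.000322 by limma. Of the 18 classes, 11 (61.1%) fell and 0 (0%) rose, so that the fall was not confined to 24 nt. The 21-nt classes did not pass, with log2 changes of 0.12 (SE 0.20) for sense and 0.02 (SE 0.16) for antisense reads. Without the 3 callus libraries that stood apart the 24-nt changes were -0.64 for sense and -0.57 for antisense reads, and without cotyledon replicate 1 as well they were -0.55 and -0.45.

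The balance of the strands did not pass the test. Antisense reads made up 46.1 ± 1.3% of the 24-nt gene reads in callus and 44.9 ± 0.9% in cotyledon (SD, n = 9 and n = 3), a difference of 1.23 percentage points that did not pass an exact two-sided permutation test over libraries (p = 0.173, adjusted over 6 library measures 0.173). The 9 callus libraries and the 3 cotyledon libraries overlapped in it. The share of 24-nt reads among all gene reads of 18 to 26 nt was 20.7 ± 2.3% in callus and 24.9 ± 6.2% in cotyledon (SD, n = 9 and n = 3; exact permutation test, p = 0.1, adjusted 0.12). This share also overlapped, since the 3 cotyledon libraries held 31.5%, 19.1% and 24.1%. The gene reads include those of Solyc11g008540.3, 436449 over the 9 callus libraries and 11381 over the 3 cotyledon libraries. The share without this locus was not computed.

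Although callus held fewer 24-nt reads relative to its library totals, those reads were spread over more loci. At a common depth of 100460 reads of 24 nt, that of the smallest library, 11599 ± 373 loci would be expected to hold a read in callus and 9370 ± 148 in cotyledon (SD, n = 9 and n = 3). The difference of 2228 loci had the smallest p that the exact permutation test over 9 and 3 libraries can give, 0.00455, and an adjusted p of 0.00909. The lowest callus library, at 10984 loci, lay above the highest cotyledon library, at 9456 loci. At a lower depth of 50230 reads the difference was 1469.5 loci, with the same p.

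The 10 most abundant loci of each library held 10.2 ± 1.1% of its 24-nt reads in callus and 12.3 ± 1.0% in cotyledon (SD, n = 9 and n = 3; exact permutation test, p = 0.0182, adjusted 0.0273). That difference lost its call without cotyledon replicate 1 (-1.74 percentage points, adjusted p = 0.136), without cotyledon replicate 2 (-1.88, adjusted p = 0.0873), without callus day 14 replicate 2 (-1.99, adjusted p = 0.0545), and when the 100 most abundant loci were taken (30.9% in callus and 31.2% in cotyledon, adjusted p = 0.786). In 11 of the 12 libraries the most abundant locus was Solyc12g010490.3 on chromosome 12, chosen here after its values were seen. Reads of 24 nt made up 93.4% of its reads in callus and 94.5% in cotyledon. It held a lowest value of 599, a median of 1036 and a highest value of 1383 reads of 24 nt per 1000000 library reads in callus, against 2320, 1219 and 694 in cotyledon, so that the tissues overlapped. Its log2 change on that scale was -0.46 (SE 0.33; edgeR, adjusted p = 0.287).

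**Figure D1:**
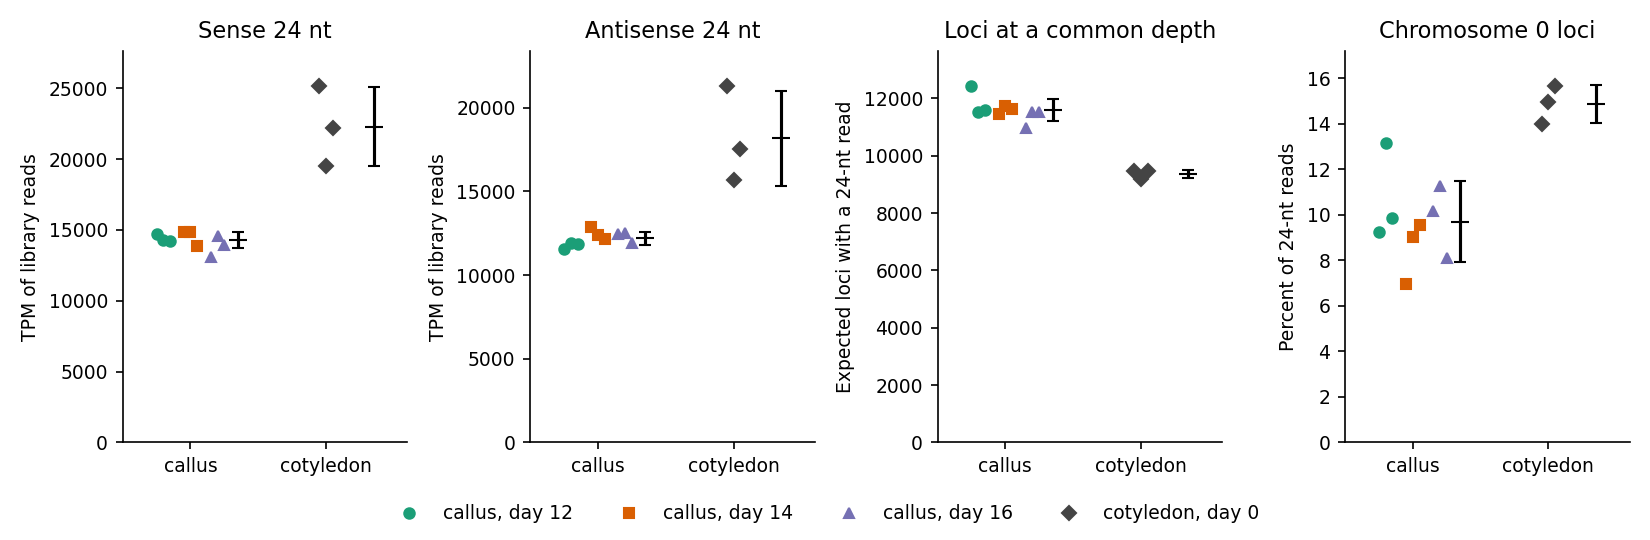
24-nt measures of each library, with callus on the left and cotyledon on the right of each panel. The vertical axes give sense and antisense 24-nt reads in TPM of library reads, the number of loci expected to hold a 24-nt read at a depth of 100460 reads, and the percent of 24-nt reads on chromosome 0 loci; each point is 1 library, and the black marks are the mean and SD of 9 callus and 3 cotyledon libraries. Every callus library lies below every cotyledon library for the strand totals and the chromosome 0 share, and above every one for the loci at a common depth.

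The next question was which loci gained or lost 24-nt reads. The answer depends on what a locus is compared with. On the gene-read scale a locus is set against the 24-nt gene reads of its library, scaled with the trimmed mean of M-values (TMM), so that it shows a change in the distribution of 24-nt reads among loci. On the library-total scale it is set against all reads of the library, in reads of 24 nt per 1000000 library reads (RPM), so that the general fall in 24-nt reads is part of it. After a filter on low counts, 2358 loci, with 79.5% of the 24-nt reads, were tested by edgeR's quasi-likelihood test, and a locus was called at an adjusted p (Benjamini-Hochberg) under 0.05.

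On the gene-read scale 972 loci (41.2% of those tested) were called, of which 431 (18.3%) rose and 541 (22.9%) fell in callus. The median log2 change over all tested loci was 0.05. The loci that rose had a median log2 change of 1.58, and those that fell had a median of -1.80. More than 4-fold changes were found at 130 loci that rose and 231 that fell. In 734 loci (31.1%) the 9 callus and 3 cotyledon libraries did not overlap.

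On the library-total scale 1067 loci (45.3%) were called, of which 199 (8.44%) rose and 868 (36.8%) fell. The median log2 change over all tested loci was -0.49, a shift of -0.53 from the gene-read scale. These medians hold for the tested loci: with no filter, over all 27966 loci with a 24-nt read, most of them with few reads, the median was 0.63 on the gene-read scale and 0.53 on the library-total scale, so that the sign of the library-total median turned. In 807 loci (34.2%) the libraries of the tissues did not overlap. Loci that rose made up 44.3% of the called loci on the gene-read scale and 18.7% on the library-total scale. The scales use the same reads and differ mainly by this shift, so that they are no independent checks of each other. The calls differed at 232 loci that rose on the gene-read scale alone, 4 of which had a negative log2 change on the library-total scale, and at 327 that fell on the library-total scale alone. The first of these held a larger share of the 24-nt reads in callus without a called gain relative to all reads of the library.

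**Figure D2:**
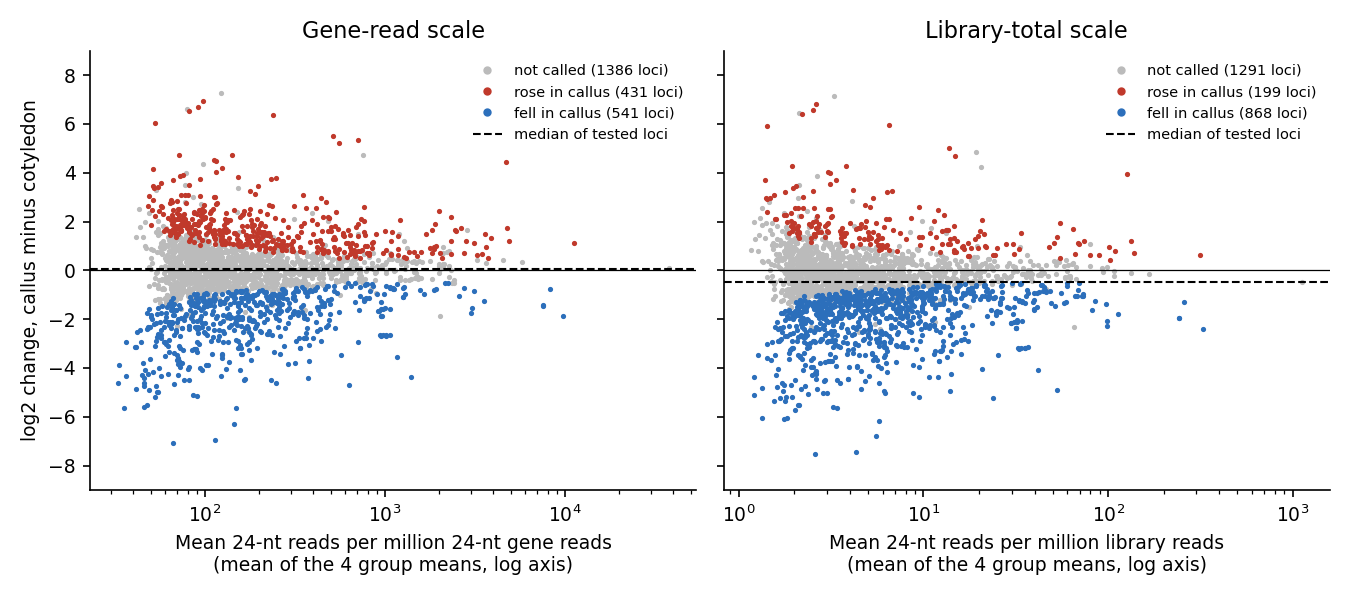
Change of each of the 2358 tested loci (vertical axis, log2 of callus over cotyledon) against its mean 24-nt level (horizontal log axis, reads per 1000000 reads of the scale). Points are loci, red where they rose and blue where they fell at an adjusted p under 0.05 by edgeR, and the dashed line is the median, 0.05 on the gene-read scale and -0.49 on the library-total scale.

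The filter itself favours loci that are high in 1 tissue. Of the 2358 loci, 438 reached the level of the filter in callus libraries alone and 124 in cotyledon libraries alone. Of the first, 203 rose and 0 fell on the gene-read scale, and of the second, 0 rose and 124 fell. Among the 1796 loci that reached it in libraries of both tissues, 228 rose and 417 fell. The shares by chromosome, by neighbour and by read length given below were taken over all tested loci, without this split. Some rises started from very few reads, since 121 of the 431 loci that rose had 10 or fewer 24-nt reads over the 3 cotyledon libraries, and 4 of them had none. Of the 541 loci that fell, 20 had 10 or fewer reads over the 9 callus libraries, and each still had at least 1.

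Without the 3 callus libraries that stood apart, 2604 loci were tested. Of these, 442 rose and 649 fell on the gene-read scale, and 188 rose and 980 fell on the library-total scale. Without cotyledon replicate 1 as well, the gene-read counts were 310 and 494 and the library-total counts 170 and 690, of 2449 tested. Since more loci entered these tests than the 2358 of the main fit, the counts do not compare directly with it. The split on the gene-read scale also depended on the scaling. With all gene reads of 18 to 26 nt as the library size, 294 loci rose and 602 fell, and with 24-nt reads but no TMM, 485 rose and 498 fell.

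Each callus day was also set against the same 3 cotyledon libraries, which these comparisons share. On the gene-read scale, day 12 had 747 called loci (31.7%), of which 330 (14%) rose and 417 (17.7%) fell. Day 14 had 739 (31.3%), of which 337 (14.3%) rose and 402 (17%) fell, and day 16 had 756 (32.1%), of which 336 (14.2%) rose and 420 (17.8%) fell. The days thus had counts close to each other. On the library-total scale 876 loci (37.2%) were called for day 12, with 153 (6.49%) higher and 723 (30.7%) lower. For day 14 the counts were 796 (33.8%), 160 (6.79%) and 636 (27%), and for day 16 they were 820 (34.8%), 147 (6.23%) and 673 (28.5%). Among the callus days themselves, 0 of 2358 loci (0%) differed by edgeR's test, 130 had an unadjusted p under 0.05, and the smallest adjusted p was 0.209. DESeq2 called 1 locus. Without the 3 callus libraries that stood apart edgeR called 10 of 2604 tested.

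Ranked by log2 change, the largest changes on the gene-read scale were complete or nearly complete gains and losses of loci with few reads. The loci named on this scale had few or no reads in the other tissue, so that they passed the filter on low counts through the tissue where they were high. Their p-values are therefore no separate support for a gain or a loss. Solyc10g054440.3 on chromosome 10 had between 4 and 23 reads of 24 nt, with a median of 14, in the callus libraries and 0 in each cotyledon library. Its level, 130 ± 51 per 1000000 of the 24-nt gene reads in callus (SD, n = 9), was at least 16.0-fold higher than a floor of 3 reads over the cotyledon group (edgeR adjusted p = 2.89e-05). Most of its reads were not 24 nt. In callus 6.87% of its reads were 24 nt and 44.7% were 21 nt, and its 21-nt reads were also more numerous, with 866 in the callus libraries against 19 in the cotyledon libraries. Its 24-nt against 21-nt difference did not pass (log2 3.31, SE 1.59, edgeR adjusted p = 0.272).

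Solyc07g009500.3 on chromosome 7 had between 3 and 34 reads of 24 nt, with a median of 11, in callus and 0 in each cotyledon library. On the gene-read scale its callus level was 13.2-fold above a floor of 3 reads over the cotyledon group (edgeR adjusted p = 0.000262). Its highest callus library was day 16 replicate 3, with 34 of its 110 callus reads of 24 nt. No length prevailed at this locus, where 12.4% of the callus reads were 24 nt and the most frequent length, 23 nt, held 13.7%. In the cotyledon libraries it had 0 reads of any length.

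The losses were at loci of mainly 24-nt reads. Solyc12g099780.2 on chromosome 12 had 0 reads in 7 callus libraries and 1 read in each of the other callus libraries, against 47, 26 and 26 reads in cotyledon, where 75.0% of its reads were 24 nt. The log2 change on the gene-read scale was -7.08 (SE 0.64; edgeR adjusted p = 3.68e-07). Solyc05g053050.1 on chromosome 5 had between 0 and 2 reads, with a median of 0, in callus, against 60, 44 and 56 in cotyledon, where 79.2% of its reads were 24 nt. Its log2 change was -6.97 (SE 0.51; edgeR adjusted p = 1.55e-08). At both loci 21-nt reads were few in both tissues, with 4 and 1 over all callus libraries against 2 and 4 over all cotyledon libraries.

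On the library-total scale loci were ranked by the difference in RPM instead, and those that moved the most reads were abundant ones. The ranking thus differs as well as the scale. On the library-total scale too, log2 changes were large at the loci named above. They were 6.81 at Solyc10g054440.3, 6.39 at Solyc07g009500.3, -7.51 at Solyc12g099780.2 and -7.45 at Solyc05g053050.1. Solyc11g008540.3 on chromosome 11 held 107 RPM of 24-nt reads in its lowest callus library, a median of 156 and a highest value of 219, against 11, 12.4 and 8.31 RPM in cotyledon. Its groups were far apart, with a log2 change of 3.95 (SE 0.28; edgeR adjusted p = 1.68e-09). This is a locus of 21-nt reads, which made up 82.9% of its reads in callus, where 24-nt reads were 1.46%, and 50.6% in cotyledon, where 24-nt reads were 0.896%. Its 24-nt and 21-nt reads changed by amounts that the test did not separate (log2 difference -0.12, SE 0.30, edgeR adjusted p = 0.909).

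Solyc09g092270.3 on chromosome 9 was a locus of 24-nt reads, with 90.5% of its reads of that length in callus and 88.5% in cotyledon. It held 345 ± 40 RPM in callus and 223 ± 25 RPM in cotyledon (SD, n = 9 and n = 3). Every callus library lay above every cotyledon library, as the rule for named loci required. The log2 change was 0.62 (SE 0.15; edgeR adjusted p = 0.00196), and on the gene-read scale it was 1.12 (SE 0.18; edgeR adjusted p = 5.4e-05).

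The largest falls in RPM that passed the rule for named loci were both on chromosome 0. Of the 10 largest losses over all loci, 3 were on chromosome 0. Solyc00g500063.1 held 106, 153 and 228 RPM at its lowest, median and highest callus library, against 899, 719 and 871 RPM in cotyledon (log2 change -2.41, SE 0.15, edgeR adjusted p = 4.24e-10). Reads of 24 nt made up 19.6% of its reads in callus and 15.3% in cotyledon, so that this locus had no main length in either tissue. Whether its reads are Dicer products or pieces of longer RNA was not tested. Solyc00g500067.1 held 141 ± 18 RPM in callus and 544 ± 73 RPM in cotyledon (SD, n = 9 and n = 3; log2 change -1.96, SE 0.14, edgeR adjusted p = 1.68e-09). Its 24-nt counts were near-identical to those of Solyc00g500020.1, so the reads of these loci are uncertain. Its length profile moved, as 24-nt reads were 25.7% of its reads in callus and 48.9% in cotyledon, and 24-nt reads fell more than 21-nt reads did (log2 difference -1.73, SE 0.27, edgeR adjusted p = 1.68e-06).

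**Figure D3:**
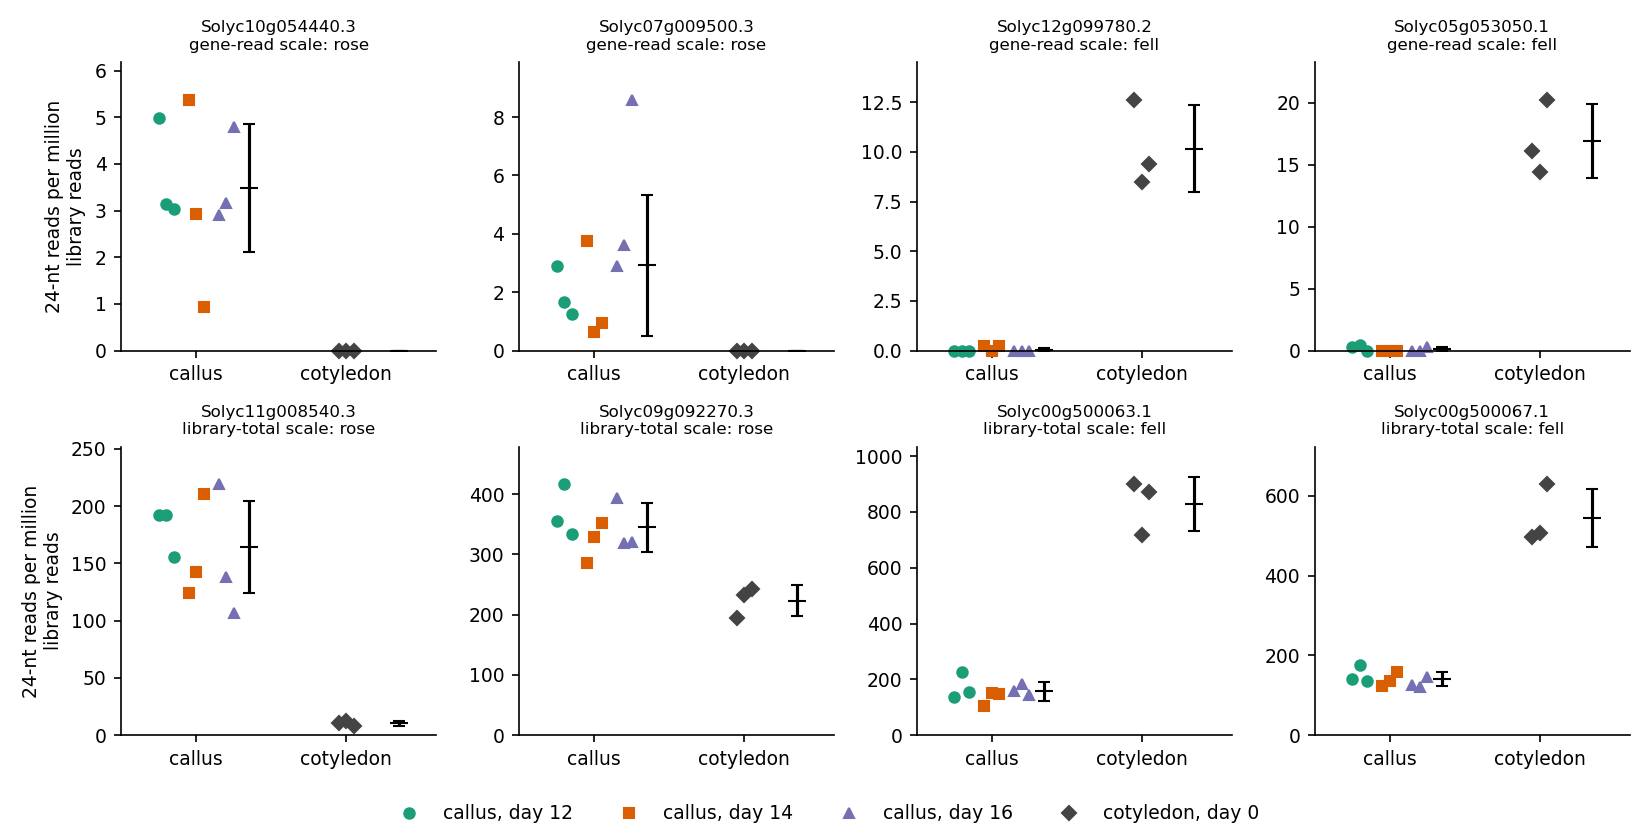
24-nt reads per 1000000 library reads (RPM) at named loci, callus left of cotyledon. The vertical axis starts at 0 and has its own range in each panel. The top row has the largest log2 changes on the gene-read scale, and the bottom row the largest differences in RPM on the library-total scale. Each point is 1 library, and the black marks are the mean and SD of 9 callus and 3 cotyledon libraries. The first and second loci of the top row have 0 reads in all 3 cotyledon libraries. The tissues do not overlap in any panel, and a lack of overlap on the scale used was required of named loci.

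Chromosome 0 accounted for more of the fall in 24-nt reads than any other chromosome. Its 578 loci held 2562 ± 456 RPM of 24-nt reads in callus and 5989 ± 639 RPM in cotyledon (SD, n = 9 and n = 3). As a share of 24-nt gene reads this was 9.70 ± 1.78% in callus and 14.9 ± 0.8% in cotyledon, a difference of -5.16 percentage points (exact permutation test, p = 0.00455, adjusted 0.00909). The callus libraries ran from 6.95% to 13.1%, all below the cotyledon libraries, which held 14.0%, 15% and 15.6%. The lowest callus share was in day 14 replicate 1, a library that stood apart. The chromosome 0 reads include those of Solyc00g500063.1 (157 RPM in callus and 830 RPM in cotyledon) and Solyc00g500067.1 (141 and 544 RPM). Solyc00g500067.1 and its near-identical Solyc00g500020.1 are both counted, and the chromosome 0 share without near-identical loci was not computed.

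Over all loci, 24-nt reads averaged 26458 ± 749 RPM in callus and 40447 ± 5641 RPM in cotyledon (SD, n = 9 and n = 3). They fell by 13988.5 RPM, and chromosome 0, with its near-identical loci counted, accounted for 24.5% of this. Every other chromosome held a lower mean RPM in callus too, and accounted for between 4.07% (chromosome 3) and 8.28% (chromosome 4). Without the loci of chromosome 0 callus held 23896 RPM and cotyledon 34458 RPM on average, and without the loci of near-identical sets callus held 23586 RPM and cotyledon 34411 RPM, both with an exact permutation p of 0.00455. The losses were uneven over loci. The 100 loci with the greatest losses, 28 of them on chromosome 0, summed to 52.9% of the net fall. The loci with a higher mean in callus gained 5352 RPM together, and the sum over the other loci fell by 19340.3 RPM.

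The loci called as fallen on the library-total scale fell by 13487.5 RPM together, and those called as risen gained 1975 RPM. The loci with too few reads to test held 5717 ± 418 RPM together in callus and 7215 ± 1072 RPM in cotyledon (SD, n = 9 and n = 3), and accounted for 10.7% of the net fall.

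Loci that rose were few on chromosome 0. On the gene-read scale 9 of its 180 tested loci (5.0%) rose and 43 (23.9%) fell, beside 18.3% and 22.9% over all chromosomes. On the other chromosomes between 13% (chromosome 3) and 25.3% (chromosome 12) of the tested loci rose, and between 18.8% (chromosome 7) and 29.2% (chromosome 10) fell. The median log2 change was lowest on chromosome 10, at -0.26, and highest on chromosome 4, at 0.27. Of the 161 loci in near-identical sets, 43 lie on chromosome 0. Its 180 tested loci include 40 of such sets, against 136 among all 2358, so the same reads may count at several loci in these shares. The sources used here do not say how reads that match several loci were counted.

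**Figure D4:**
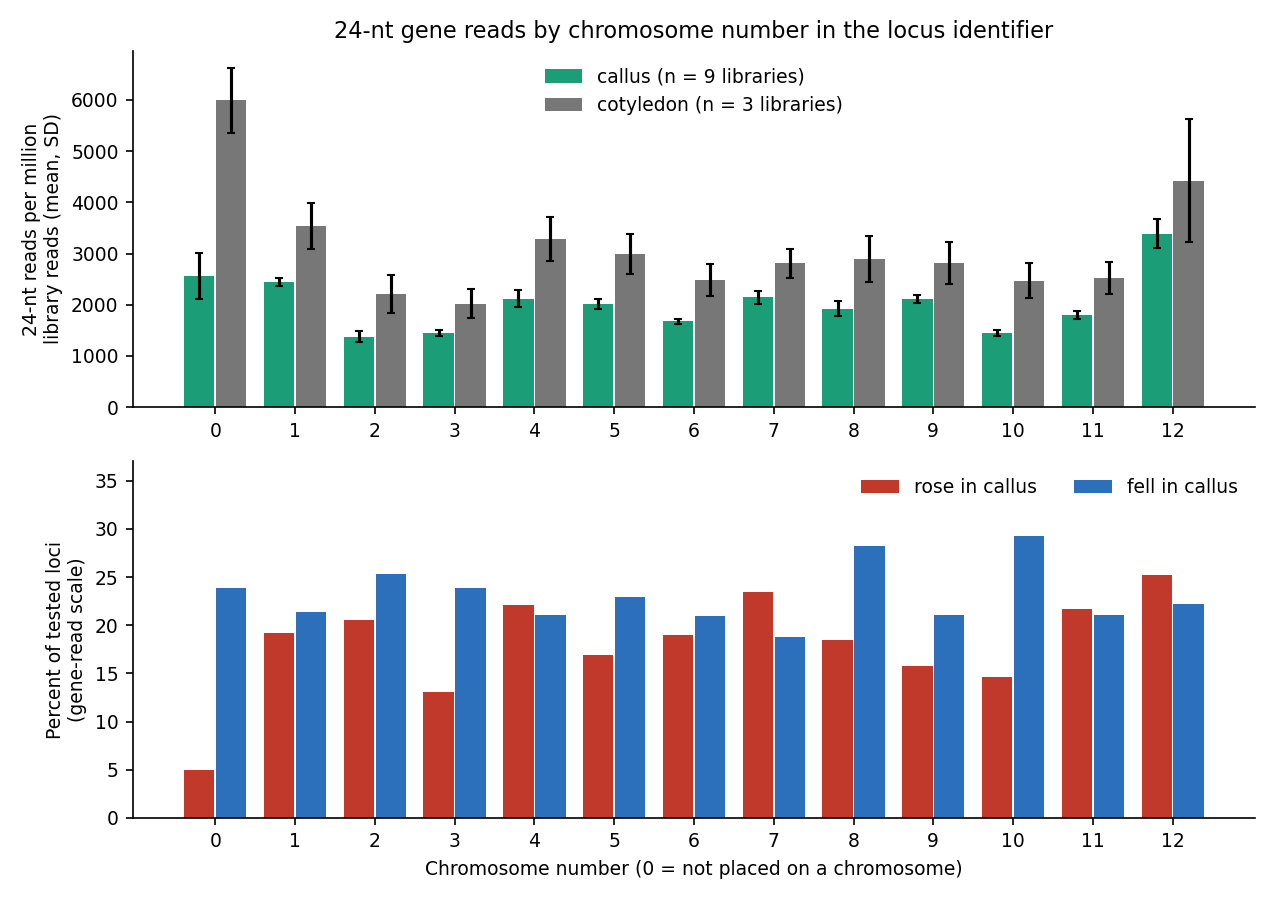
24-nt reads of callus (green) and cotyledon (grey) by chromosome, in RPM with the SD over 9 and 3 libraries (top), and the percent of tested loci that rose (red) or fell (blue) in callus on the gene-read scale (bottom). Chromosome 0 has the largest drop in reads, with 2562 in callus and 5989 in cotyledon, and the lowest share of loci that rose, 5.0%.

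Called loci on chromosomes 1 to 12 tended to lie beside loci called in the same direction. Of 422 such loci that rose, 13.3% had a locus that rose next to them in the order of identifiers, compared with 2.81% of 498 loci that fell and 6.06% of all 2178 tested. Of the loci that fell, 17.3% had a neighbour that fell, compared with 3.55% of the loci that rose and 7.62% of all tested. Without loci of near-identical sets the same-direction shares were 10.5% for loci that rose and 13.4% for loci that fell, beside 5.38% and 6.34% of all tested. These shares are a description without a test. Neighbouring loci can overlap or hold copies of 1 sequence, and the part of shared reads in these shares was not tested.

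Loci differed in how much of their small RNA was 24 nt, and the share of loci called in each direction varied with it, while their summed 24-nt reads were lower in callus in every class. The tested loci were grouped by the mean of the 24-nt share of their reads in callus and in cotyledon. At 1538 loci with a share of 50% or more, 15.6% rose and 23.3% fell on the gene-read scale, and 5.20% rose and 38.4% fell on the library-total scale. At 236 loci with a share under 20%, 32.6% rose and 28.0% fell on the gene-read scale, and 22% rose and 32.2% fell on the library-total scale. The 584 loci between these lay between them in the share that rose on both scales. The median log2 change on the gene-read scale was -0.02 in the first class and 0.46 in the second. The summed 24-nt reads were 14391 ± 843 RPM in callus and 22987 ± 3495 RPM in cotyledon at the loci with 50% or more, 4260 ± 249 and 6891 ± 884 RPM in the class between, and 2091 ± 230 and 3354 ± 356 RPM at the loci under 20% (SD, n = 9 and n = 3). Since these classes were made from the same reads, the shares are given as a description without a test.

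The loci with 24 nt as their most frequent length in both tissues, 1842 of the 2358, have as their main length the one typical of small interfering RNAs that guide DNA methylation. Of these, 265 (14.4%) rose and 418 (22.7%) fell on the gene-read scale, and 86 (4.67%) rose and 710 (38.5%) fell on the library-total scale. Over all tested loci the shares were 18.3% and 22.9% on the gene-read scale and 8.44% and 36.8% on the library-total scale. The 1842 loci held 16765 ± 800 RPM in callus and 26928 ± 4040 RPM in cotyledon (SD, n = 9 and n = 3). The other 516 loci, 21.9% of those tested, held 3977 ± 294 RPM in callus and 6304 ± 639 RPM in cotyledon (SD, n = 9 and n = 3). Of these 516, 113 rose and 158 fell on the library-total scale, and they made up 56.8% of the loci that rose there and 18.2% of those that fell. A locus with few or no 24-nt reads in callus or in cotyledon tends to fall among the 516 by its own change. These shares, made from the same reads, are thus a description without a test.

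**Figure D5:**
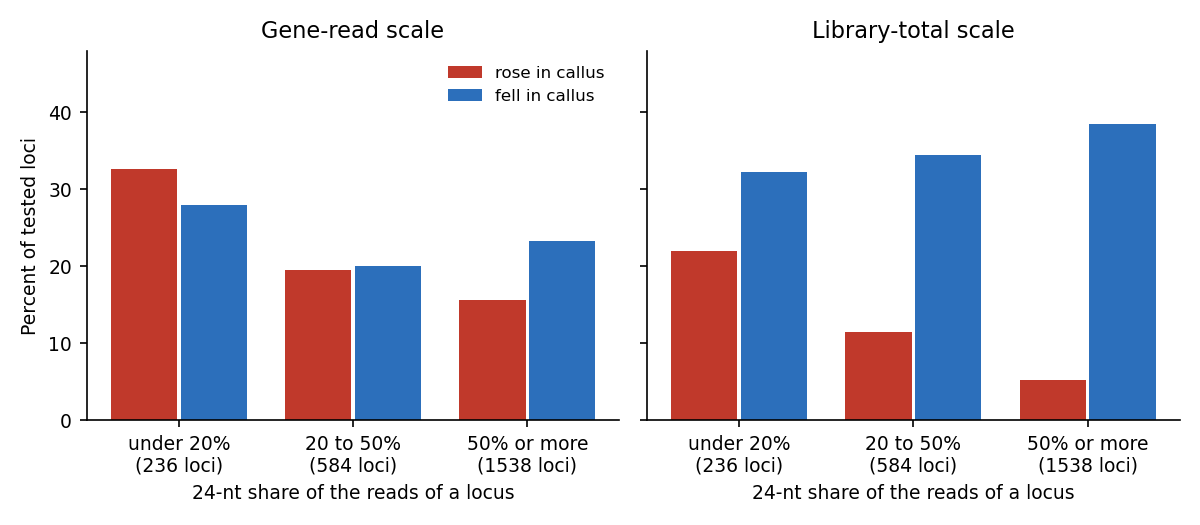
Percent of tested loci that rose (red) or fell (blue) in callus at an adjusted p under 0.05 by edgeR, for loci grouped by the 24-nt share of their reads (horizontal axis). The share of loci that rose is 32.6% in the lowest and 15.6% in the highest class on the gene-read scale, and 22% and 5.20% on the library-total scale.

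Whether the 24-nt reads of a locus changed differently from its own 21-nt reads was tested in 1 edgeR model with both lengths. Of 2347 loci, 137 (5.84%) were called, 40 (1.7%) towards 24 nt and 97 (4.13%) towards 21 nt in callus, and the median log2 difference was -0.22. The count towards 21 nt rested on cotyledon replicate 1, without which it was 48 of 2478 tested. The count towards 24 nt was 24 of 2474 without cotyledon replicate 2 and 27 of 2492 without cotyledon replicate 3. It was 26 of 2312 without the 3 callus libraries that stood apart.

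The largest shifts towards 24 nt were at loci with few reads. Solyc11g150127.1 on chromosome 11 had between 4 and 15 reads of 24 nt, with a median of 8, in callus and 0 in each cotyledon library, while its 21-nt reads summed to 52 in callus and 10 in cotyledon (log2 difference 5.74, SE 1.82, edgeR adjusted p = 0.0414). Solyc10g051170.2 on chromosome 10 had between 1 and 5 reads of 24 nt, with a median of 2, in callus and 0 in each cotyledon library, while its 21-nt reads summed to 36 in callus and 42 in cotyledon (log2 difference 6.40, SE 1.75, edgeR adjusted p = 0.0121). Both calls were lost without any 1 of the cotyledon libraries, where the adjusted p was between 0.0556 and 0.356. The call of Solyc11g150127.1 was also lost without replicate 2 of any callus day, with adjusted p between 0.0559 and 0.0621, and without the 3 callus libraries that stood apart (adjusted p = 0.054). With 0 reads in cotyledon these log2 differences are no bounds on the change.

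The largest shifts towards 21 nt were losses of 24-nt reads. Solyc05g053980.1 on chromosome 5 had between 0 and 4 reads of 24 nt, with a median of 0, in callus, against 25, 18 and 15 in cotyledon, and 21 reads of 21 nt over the callus libraries against 0 over the cotyledon libraries (edgeR adjusted p = 0.000158). Solyc05g055880.4, on the same chromosome, had between 0 and 4 reads of 24 nt, with a median of 1, in callus, against 23, 15 and 14 in cotyledon, and 10 reads of 21 nt over the callus libraries against 0 over the cotyledon libraries (edgeR adjusted p = 0.00573). In cotyledon 24-nt reads made up 93.5% and 88.1% of the reads of these loci, and in callus 17.0% and 25.5%. At Solyc05g055880.4 24 nt was still the most frequent length in callus, beside 19.6% of 21 nt. Its 10 reads of 21 nt were the fewest that the test admitted, and without cotyledon replicate 1 its edgeR adjusted p was 0.0493.

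The authors' deposited table compares the 24-nt reads of each callus day with cotyledon. The authors' deposited table gives an adjusted p for 4643 loci on day 12, for 4249 on day 14 and for 4238 on day 16. At an adjusted p under 0.05, the authors' deposited table lists 215 higher and 357 lower loci for day 12. It lists 203 higher and 372 lower for day 14, and 177 higher and 412 lower for day 16. The day comparisons given above tested 2358 loci, so that the counts do not compare directly with those. Rises made up 37.6%, 35.3% and 30.1% of the called loci of the authors' deposited table on these days. At Solyc11g008540.3 the authors' deposited table gives log2 changes of 4.67, 4.41 and 4.40, and at Solyc00g500063.1 it gives -1.66, -2.11 and -1.82. For comparison, the gene-read fit gave 4.63, 4.36 and 4.39 at the first of these loci and -1.68, -2.15 and -1.82 at the second.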

How the data were processed

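Groups and replicate numbers came from sample titles. The tools fastp, Bowtie and DESeq2 are named in the submitters' processing notes, and the sources used here give no versions, settings or genome build. The authors deposited raw counts per locus for each length from 18 to 26 nt, TPM values by strand and length, and DESeq2 log2 fold changes with adjusted p-values, per the file headers. The deposited TPM equal reads per 1000000 of a library total, and with that total all 216 values were whole reads within 0.05. Columns of other samples numbered 0.

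The members, the rule for named loci and the alternatives were chosen with earlier results of these data known. Counts of 24-nt reads were tested in edgeR 4.0.16 (R 4.3.3; filterByExpr, TMM or library totals, quasi-likelihood F test, 12 libraries in 4 groups), with callus as the mean of its 3 days. The SE was the log2 change over the square root of F. The 24-nt against 21-nt test had a term per library and length-by-group terms. Strand classes were tested with limma 3.58.1 on log2(TPM + 1), so these fold changes are on that scale; edgeR on the recovered reads called 11 of 18 classes as fallen and 0 as risen. DESeq2 1.42.0 was an alternative. Library measures were compared by exact two-sided permutation over the 220 choices of 3 libraries (Python 3.11.15, SciPy 1.17.1), adjusted over 6 measures. The edgeR and limma tests were tested on simulated data.

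Named loci passed an adjusted p of 0.05, averaged at least 10 reads per 1000000 on the scale used, showed no overlap between tissues, and were the 2 largest changes per direction, by log2 change or, on the library-total scale, by difference in RPM. Loci were near-identical when each had at least 30 reads and their counts differed by at most 5% (71 sets). No replicate was a copy of another (24-nt chi-square per degree of freedom 2.79 to 5.21). The planned lists of pathway genes matched no locus. Reads have no molecular identifiers, so counts include PCR copies. No sequence is shown.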

Additional observations from a re-analysis of the deposited data

Results flagged for a closer look

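Of 16 sets of 9 callus libraries examined for a value far from the others (the library measures, the sense and antisense totals and the loci named on the gene-read and library-total scales), 1 was marked, and chance marks about 1 in 20. Solyc07g009500.3 had 8.59 RPM of 24-nt reads in callus day 16 replicate 3, while the next highest callus library had 3.74 and all 3 cotyledon libraries had 0. This library is 1 of the 3 callus libraries that stood apart in the 24-nt levels.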

How the results depend on the processing

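At the 12 named loci, 15 alternatives gave no value because the locus no longer entered the test (10 of them at Solyc05g055880.4 and 3 at Solyc10g051170.2), and 213 of the 225 recomputed values kept their direction and call, 12 kept the direction and lost the call, and 0 reversed; all 12 lost calls were shifts towards 24 nt. Leaving out 1 library at a time gave 314 to 481 loci that rose and 462 to 642 that fell on the gene-read scale, 149 to 205 and 666 to 987 on the library-total scale, 24 to 44 loci towards 24 nt, 48 to 99 towards 21 nt, 0 to 1 locus among callus days, and -2.68 to -1.74 percentage points for the share on the 10 most abundant loci. The loci tested also changed, to between 2642 and 2770 on both scales, against 2358 in the main fit. For 24 nt against 21 nt they were 2445 to 2556, against 2347, so these counts do not compare directly with the main ones. Among callus days, 10 of 2604 loci were called without the 3 callus libraries that stood apart, and 9 of 2449 without cotyledon replicate 1 as well. With no filter on low counts 8 of 27966 were called, and by DESeq2 1 of 2358. Without the 3 callus libraries, 26 of 2312 loci were called towards 24 nt, and without the 4 libraries 46 of 2120 towards 21 nt. The share on the most abundant loci differed by -2.35 percentage points without the 3 libraries (adjusted p = 0.0714), by -1.99 without the 4 and by -0.27 for 100 loci. Without the 4 libraries the exact test cannot give a p below 0.0357, so the differences of -11051 RPM, 2309 loci and -4.91 percentage points on chromosome 0 had adjusted p = 0.0714. With no filter 27966 loci were tested. Of these, 351 rose and 720 fell on the gene-read scale, 158 rose and 1301 fell on the library-total scale, and the median log2 change was 0.63 and 0.53. Same-numbered libraries correlated between -0.36 and 0.35, over 0.1 in 5 of 18 pairs, and 4 of 12 libraries correlated best with their own number. This check thus showed no pairing by number. The highest correlations, from 0.348 to 0.485, were among the 3 callus libraries that stood apart, and a pattern shared by these may hide a pairing. With the replicate block, 401 loci rose and 526 fell on the gene-read scale, 175 and 828 on the library-total scale, 39 shifted towards 24 nt and 92 towards 21 nt, Solyc11g150127.1 lost its call (adjusted p = 0.0841), 0 differed among callus days, and the strand totals changed by -0.64 and -0.56. At the depth of these libraries, loci with few reads could not be tested. The cause of these changes was not tested.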
